A study of Homo sapiens with 6 samples.

Results

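The Notch genes described here are 10 of the 27009 genes with a row in the deposited table. They are the receptor genes NOTCH1, NOTCH2 and NOTCH3, the ligand genes JAG1 and JAG2, the Fringe genes LFNG, MFNG and RFNG, and the target genes HES1 and HEY1, taken by their symbols in that table. They were chosen with the contrast between the groups already known, so their differences are given as a description with standard errors and without p-values. All 10 had a row. Genes entered the test when 3 or more libraries held a value of 10 or more, which 9 of them did and MFNG did not.

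RNA sequencing compared 3 libraries with 3 libraries of Hep3B, a human liver cancer cell line. In both groups the endogenous PD-L1 gene (CD274) had been knocked out. The vector group carried the empty vector. The other group was labelled as overexpressing nPD-L1, a PD-L1 with altered residues that is retained in the nucleus, delivered by lentivirus from a CMV promoter and selected with puromycin. The comparison asks how transcript levels differ with nPD-L1 in cells without endogenous PD-L1. The study calls the libraries of a group independent samples without saying whether they came from separate cultures, so errors and p-values measure only the spread between these libraries.

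Notch receptors are single-pass membrane proteins that are cut by furin-like convertases on their way to the surface. Binding of a Jagged or Delta ligand on a neighboring cell exposes the receptor to ADAM proteases and then to gamma-secretase, and the freed intracellular domain enters the nucleus, joins the DNA-binding protein RBPJ and a Mastermind coactivator, and turns on HES and HEY genes, which encode basic helix-loop-helix repressors. Fringe enzymes add N-acetylglucosamine to O-fucose on the receptor's EGF repeats and so bias it between Delta and Jagged ligands. In the liver the pathway is best known for bile duct formation, in which JAG1 and NOTCH2 act.

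Promoter sequence was looked at because LFNG, NOTCH1, JAG1 and HEY1 moved together while HES1, a direct RBPJ target in many tissues, did not move with them. RefSeq promoter windows of GRCh38.p14, 250 bases before to 50 bases after a transcription start, were present for 8 of the 10 genes, and LFNG had a pair of windows. MFNG and HEY1 had no entry. The 250 bases before the start are printed 5′ to 3′ on the gene's own strand for the Fringe gene, the receptor and the ligand that stood higher and for HES1, which stood lower. Capitals mark the RBPJ core TGGGAA, or its reverse complement TTCCCA. In LFNG the last base of that match is the first transcribed base and lies outside the printed stretch.
LFNG, chr7:2512279-2512528, plus strand: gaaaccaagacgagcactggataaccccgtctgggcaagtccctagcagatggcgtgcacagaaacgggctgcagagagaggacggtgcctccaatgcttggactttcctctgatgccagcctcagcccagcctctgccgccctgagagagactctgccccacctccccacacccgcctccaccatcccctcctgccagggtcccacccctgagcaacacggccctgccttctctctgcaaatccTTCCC
HES1, chr3:194135898-194136147, plus strand: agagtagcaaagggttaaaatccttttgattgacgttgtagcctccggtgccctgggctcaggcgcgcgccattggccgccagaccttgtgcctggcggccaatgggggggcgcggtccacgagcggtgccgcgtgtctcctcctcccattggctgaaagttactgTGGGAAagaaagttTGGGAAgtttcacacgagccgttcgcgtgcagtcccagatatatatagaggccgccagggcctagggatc
NOTCH1, chr9:136546049-136546298, minus strand: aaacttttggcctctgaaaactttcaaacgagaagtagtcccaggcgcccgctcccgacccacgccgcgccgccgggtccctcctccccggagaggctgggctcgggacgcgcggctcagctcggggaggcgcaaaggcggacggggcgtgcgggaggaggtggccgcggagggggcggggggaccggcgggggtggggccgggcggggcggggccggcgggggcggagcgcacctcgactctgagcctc
JAG1, chr20:10674000-10674249, minus strand: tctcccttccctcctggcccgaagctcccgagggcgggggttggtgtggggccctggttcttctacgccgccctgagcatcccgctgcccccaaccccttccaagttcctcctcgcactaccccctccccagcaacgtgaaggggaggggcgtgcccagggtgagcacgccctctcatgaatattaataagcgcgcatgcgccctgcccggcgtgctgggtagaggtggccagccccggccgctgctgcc

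The RBPJ core was found in 2 of the 8 genes, LFNG and HES1, against 24.0% of 35116 promoter windows in the RefSeq table. HES1 held it on its own strand starting 84 and 70 bases before the start. LFNG held it on the opposite strand from 5 bases before the start, and in its second window, whose start lies 5334 bases downstream of the first, 248 bases before that start. The HES and HEY repressor site CACGCG was found in JAG1, JAG2 and HES1 and in 11.4% of all windows. The SMAD core CAGAC was found in LFNG, JAG1 and HES1 and in 45.3% of all windows. Neither the AP-1 site TGANTCA (7.71% of all windows) nor the E-box CACGTG (7.26%) matched in any of the 8, and NOTCH1, NOTCH2, NOTCH3 and RFNG held none of the 5 motifs in these windows. Among 15298 windows of tested genes the shares were 21.6% for the RBPJ core, 17.1% for CACGCG and 43.5% for CAGAC. They were 5.37% for TGANTCA and 9.21% for CACGTG. All these shares count windows, whereas the Notch matches are counted by gene. Both strands were searched, and a match is a string of letters only. The NOTCH1 start in RefSeq lies 262 bases upstream of the gene's 5′ end in the deposited table, and those of LFNG and JAG1 are at the same base.

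Values are scaled reads, the reads on a gene divided by a factor for each library. The recovered depth was 17427519 to 22253295 reads on genes per library, and the 10 most abundant genes took 6.43% to 7.43%. The level of CD274 did not follow the label. It measured 28.3, 38.4 and 47.8 scaled reads across the vector libraries and 16.8, 19.2 and 30.9 in those labelled nPD-L1, so it was not higher with the construct (log2 fold change -0.76 ± 0.34 SE, limma adjusted p = 0.34). Directions are therefore given for the libraries by their label. At the protein level, the study reports PD-L1 re-expressed in the nucleus of its Hep3B knockout cells, by immunoblot and cell fractionation. Protein was not measured in these libraries. Of 12 hepatocyte and hepatoma markers with a row, ALB, APOA1, APOB, TTR and TF were under 10 in every library, while KRT7, a keratin of bile duct and other glandular epithelia, reached 25400 to 37356 in the vector libraries. AFP and KRT19 were not analysed here. The summed fibroblast markers (4 of 7 with a row, DCN and PDGFRA under 10 in every library) were 165 to 245 across the vector libraries and 590 to 652 in those labelled nPD-L1, with COL1A1 called higher (log2 fold change 2.84, limma adjusted p = 8.0e-06). LUM, the other marker of that list above 10, had means of 131 and 137 scaled reads (0.10, adjusted p = 0.89). HNF4A, a hepatocyte marker, was called higher (1.91, adjusted p = 0.023), and the summed levels of the hepatocyte list and of the 7 biliary markers with a row overlapped between the groups. Leukocyte and endothelial sums stayed at or under 20.2. The part of these markers in the Notch values was not tested.

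**Figure D1:**
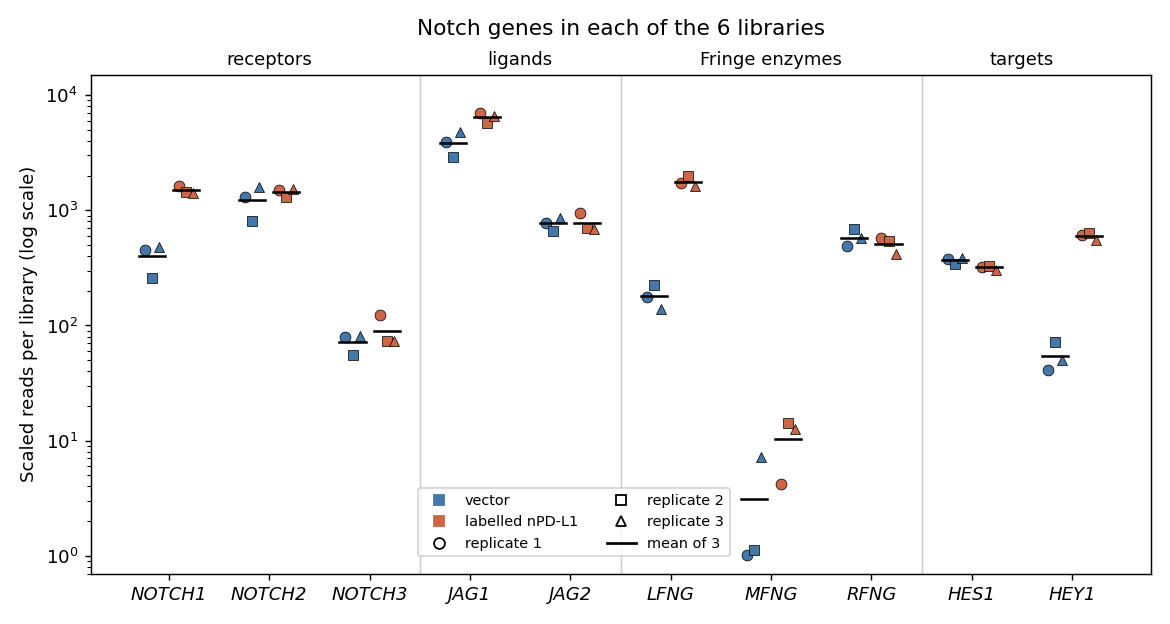
Scaled reads (log axis) of the 10 Notch genes in each of the 6 libraries; blue symbols are vector, orange symbols are labelled nPD-L1, the symbol shape gives the replicate number and the black bar the mean of 3. For LFNG, HEY1, NOTCH1 and JAG1 all orange symbols lie above all blue ones, and for HES1 they lie just below.

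In the libraries labelled nPD-L1, the genes of 1 receptor, 1 ligand, 1 Fringe enzyme and 1 target were higher in every library than in any vector library. HEY1 was 11.2-fold higher, LFNG 10-fold, NOTCH1 3.90-fold and JAG1 1.70-fold. In bulk RNA, more cells with a transcript and more transcript per cell cannot be told apart. The other 5 genes tested differed by at most 0.29 on the log2 scale in either direction. In the same limma fit 4 of the 9 tested genes were called higher at an adjusted p under 0.05 and 0 lower. Of all 15076 genes tested 4.96% were called, 4.04% higher and 0.922% lower. Ranges did not overlap for 4 genes that were higher and 1 that was lower, beside 12.0% and 8.54% of all genes tested. Because the genes were chosen from this contrast, nothing is read from these shares. The median log2 fold change was 0.29 for the 9 genes and -0.02 for all genes tested.

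Among the receptors, NOTCH1 (ENSG00000148400, GRCh38 chromosome 9, 136494433 to 136545786, minus strand) encodes the receptor best known from T cell development and leukemia. It measured 453, 259 and 479 scaled reads in vector replicates 1, 2 and 3, and the libraries labelled nPD-L1 held 1632, 1445 and 1419. The groups were far apart, and vector replicate 2 was the lowest of the 6. The means were 397 ± 121 and 1499 ± 116 (SD, n = 3 each), a log2 fold change of 1.96 ± 0.20 (SE). Leaving out vector replicate 2 gave 1.68.

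NOTCH2 (ENSG00000134250, chromosome 1, 119911553 to 120069626, minus strand), the receptor of bile duct formation, measured 1309, 800 and 1607 across the vector libraries and 1486, 1308 and 1527 in those labelled nPD-L1. The vector libraries spanned the whole range of the other group, and vector replicate 2 was again the lowest. The log2 fold change was 0.27 ± 0.21, and without vector replicate 2 it was -0.01. The genome holds near-identical partial copies of NOTCH2, the NOTCH2NL genes, between which counting could split reads.

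NOTCH3 (ENSG00000074181, chromosome 19, 15159038 to 15200981, minus strand), the receptor of vascular smooth muscle, was the least abundant of the receptors at 79.7, 55.3 and 81.1 across the vector libraries and 124, 72.8 and 73.3 in those labelled nPD-L1. Only replicate 1 of the latter lay above the vector range, and the log2 fold change of 0.29 ± 0.26 was close to its error.

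JAG1 (ENSG00000101384, chromosome 20, 10637684 to 10673999, minus strand), the ligand mutated in Alagille syndrome, was the most abundant of the 10. It measured 3902, 2898 and 4736 across the vector libraries and 7014, 5764 and 6529 in those labelled nPD-L1. The highest vector library lay below the lowest of the other group. Means were 3845 ± 920 and 6436 ± 630 (SD, n = 3 each), and the log2 fold change was 0.77 ± 0.16. JAG1 was no longer called when vector replicate 1 (0.79 ± 0.20), nPD-L1 replicate 1 (0.70 ± 0.19) or nPD-L1 replicate 3 (0.75 ± 0.20) was left out, which left 3 Notch genes called.

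JAG2 (ENSG00000184916, chromosome 14, 105140981 to 105168824, minus strand), the other Jagged ligand, measured 779, 660 and 865 against 947, 699 and 689. The groups overlapped and the log2 fold change was 0.01 ± 0.15.

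The 5 genes NOTCH1, NOTCH2, NOTCH3, JAG1 and JAG2 were all lowest in vector replicate 2, and their exon lengths run from 6397 to 16807 bases. Each library was set against the mean of the other libraries of its group on the log2 scale. Across 2218 tested genes of at least 9000 bases, the median deviation of vector replicate 2 was -0.24, against 0.04 for shorter genes. That of vector replicate 3 was 0.19 for the long genes. With the trend on gene length removed from every library, an alternative chosen after seeing the data, the log2 fold change of NOTCH1 was 1.86, that of JAG1 0.68 and that of NOTCH2 0.13.

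LFNG (ENSG00000106003, chromosome 7, 2512529 to 2529177, plus strand) encodes Lunatic Fringe. It measured 176, 225 and 138 scaled reads across the vector libraries and 1708, 1983 and 1633 in those labelled nPD-L1. These values rest on 133 to 199 reads per vector library and 1693 to 2033 in the other group, so counting error was small beside the difference. The means were 180 ± 43.4 and 1775 ± 184 (SD, n = 3 each), with a log2 fold change of 3.32 ± 0.17. Vector replicate 2, lowest for the receptors and ligands, was the highest vector library here.

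MFNG (ENSG00000100060, chromosome 22, 37469063 to 37486401, minus strand), Manic Fringe, was barely present, with 1, 1 and 7 reads across the vector libraries and 5, 14 and 13 in those labelled nPD-L1. In scaled reads it measured 1.01, 1.13 and 7.27 against 4.20, 14.2 and 12.5. The groups overlapped, and at this depth no fold change is given.

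RFNG (ENSG00000169733, chromosome 17, 82047902 to 82051831, minus strand), Radical Fringe, measured 487, 683 and 571 against 575, 539 and 419. Its log2 fold change was -0.18 ± 0.16, with overlapping groups. GPS1, a subunit gene of the COP9 signalosome, overlaps part of RFNG on the opposite strand, from 82050691 to 82051831. Because it is not stated that strand was used in counting, reads of the pair in that stretch cannot be told apart. GPS1 had a log2 fold change of -0.16 (limma adjusted p = 0.59).

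HEY1 (ENSG00000164683, chromosome 8, 79764010 to 79767863, minus strand) measured 41.4, 71.2 and 49.9 scaled reads across the vector libraries and 613, 640 and 550 in those labelled nPD-L1. The lowest value of the latter group was several times the highest vector value. The means were 54.1 ± 15.3 and 601 ± 46.3 (SD, n = 3 each), and the log2 fold change of 3.48 ± 0.20 was the highest of the 9 genes tested.

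HES1 (ENSG00000114315, chromosome 3, 194136145 to 194138732, plus strand) measured 377, 344 and 389 across the vector libraries and 324, 331 and 304 in those labelled nPD-L1. Every value of the latter lay below every vector value, the opposite direction to HEY1, by a narrow margin. The log2 fold change was -0.21 ± 0.12, it was not called in any of the 18 alternative settings, and it was -0.09 with the trend on gene length removed.

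**Figure D2:**
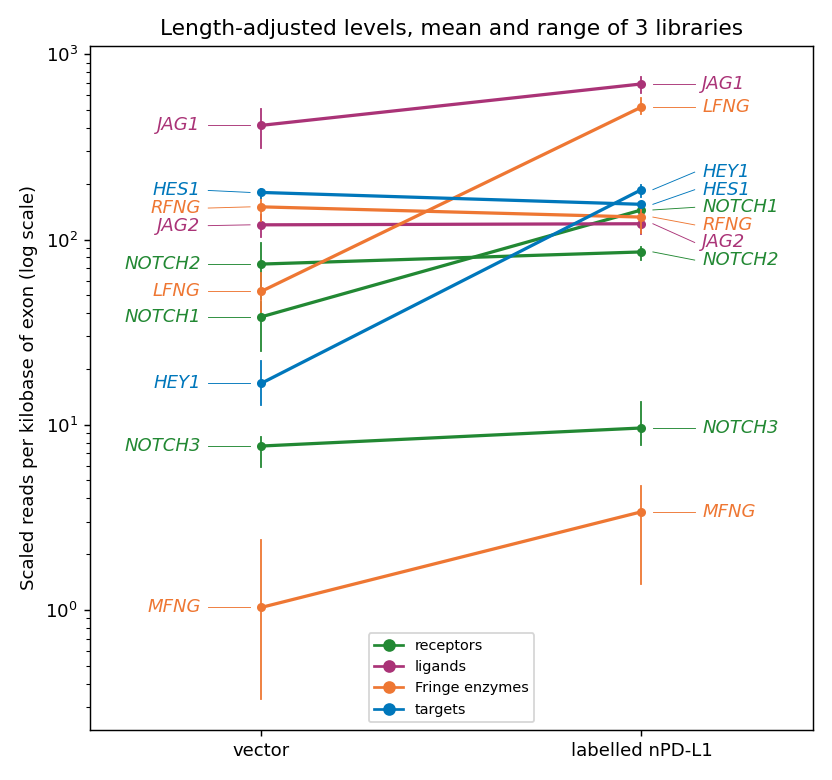
Scaled reads per kilobase of exon (log axis) of the 10 Notch genes in both groups; points are means and vertical bars the range of 3 libraries, colored by role. LFNG and HEY1 cross most of the other genes between the groups, and JAG1 stays at the top.

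Levels can be compared between genes only per length, here as scaled reads per kilobase of exon. In the vector libraries the order was JAG1 (414), HES1 (180), RFNG (150), JAG2 (120), NOTCH2 (73.7), LFNG (52.5), NOTCH1 (38.3), HEY1 (16.8), NOTCH3 (7.67) and MFNG (1.03). The ranges of HES1 and RFNG overlapped, as did those of RFNG and JAG2, of NOTCH2 and LFNG, and of LFNG and NOTCH1. In those labelled nPD-L1 the order was JAG1 (692), LFNG (519), HEY1 (186), HES1 (155), NOTCH1 (144), RFNG (132), JAG2 (122), NOTCH2 (85.7), NOTCH3 (9.60) and MFNG (3.39). There the run from HES1 through NOTCH1 and RFNG to JAG2 overlapped from neighbor to neighbor, while JAG1, LFNG and HEY1 stood apart from each other and from the rest. LFNG moved from the sixth rank to the second and HEY1 from the eighth to the third. No gene changed its rank within a group when any library of that group was left out.

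The shift within each role can be read as a share of its length-adjusted reads. NOTCH1 made up 33.6%, 31.8% and 30.7% of the summed NOTCH1, NOTCH2 and NOTCH3 reads across the vector libraries and 60.7%, 61.9% and 58.1% in those labelled nPD-L1, while NOTCH2 went from a mean of 61.4% to 35.8%. The leading transcript of these was NOTCH2 in every vector library and NOTCH1 in every library labelled nPD-L1. LFNG made up 28.9%, 27.1% and 21.2% of the Fringe reads across the vector libraries and 76.9%, 80.1% and 81.0% in the others, with RFNG going from a mean of 73.7% to 20.2%. JAG1 went from 77.2% ± 1.96 to 85.1% ± 1.56 (SD, n = 3 each) of the Jagged reads. HEY1 was 6.54%, 11.6% and 7.57% of the summed HES1 and HEY1 reads across the vector libraries and 54.7%, 55.3% and 53.6% in the others. These shares use the same contrast as the choice of genes and carry no test.

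**Figure D3:**
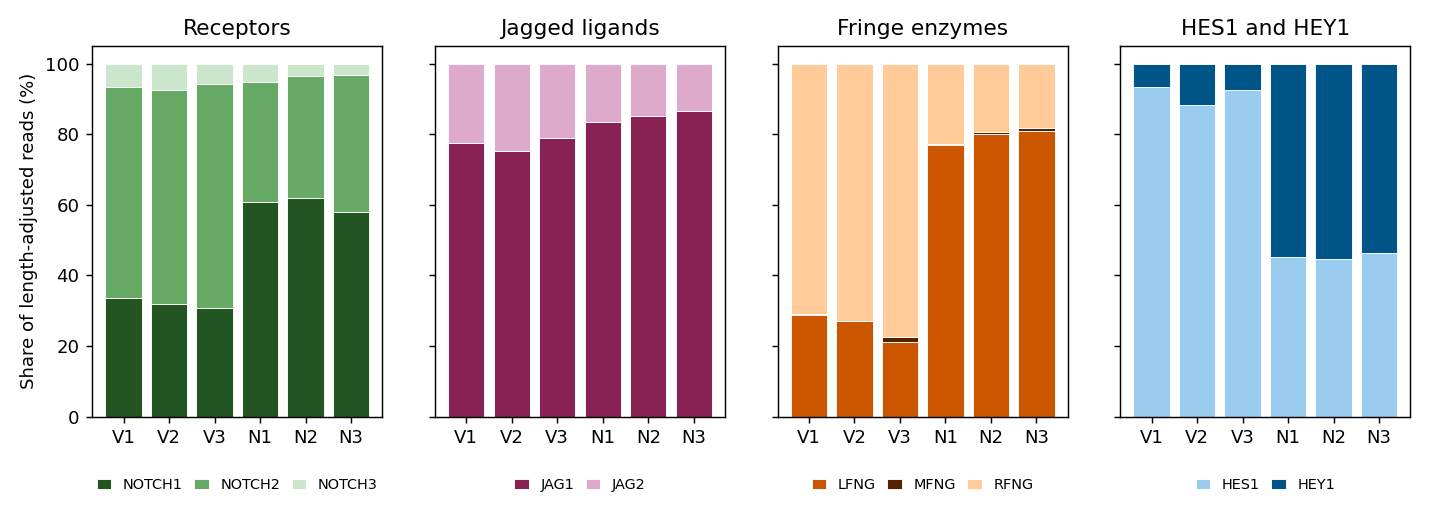
Share (%) of the length-adjusted reads that each gene took within its role in each library; V1 to V3 are vector replicates and N1 to N3 are replicates labelled nPD-L1. NOTCH1 is at 30.7% to 33.6% in V1 to V3 and at 58.1% to 61.9% in N1 to N3, and LFNG and HEY1 shift in the same direction.

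The sums behind these shares were also higher. Summed receptors were 120 ± 37.1 scaled reads per kilobase across the vector libraries and 240 ± 17.4 in those labelled nPD-L1, summed ligands 534 ± 115 and 814 ± 86.7, and summed Fringe genes 204 ± 34.6 and 655 ± 67.2 (SD, n = 3 each). The sum of HES1 and HEY1 went from 196 ± 7.44 to 341 ± 21.1.

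Genes of the rest of the pathway were also listed with earlier results of these data known, so nothing is read from their shares. They came from 6 lists of 68 genes that hold none of the 10, of which 64 had a row and 61 were tested. Of these, 6 were called higher and 0 lower by limma at an adjusted p under 0.05, beside 4.04% and 0.922% of all genes tested. At an unadjusted p under 0.05 the counts were 14 higher and 0 lower, beside 9.53% and 4.71% of all genes tested. Their median log2 fold change was 0.14, with 41 of 61 above 0, against -0.02 for all genes tested, of which 7041 of 15076 were above 0. The 6 called by limma included NRARP, FURIN, SPEN, NUMBL and RBPJ. The lists also hold long genes, for which vector replicate 2 stood low. With the trend on gene length removed, 7 of the listed genes were called higher and 0 lower. The part of gene length in the median was not tested.

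NRARP, a Notch target that encodes a feedback inhibitor of the intracellular domain, had the largest difference of these. It measured 67.6, 96.0 and 92.5 scaled reads across the vector libraries and 506, 562 and 391 in those labelled nPD-L1. The groups did not overlap, and the log2 fold change was 2.50 ± 0.19 (adjusted p = 2.3e-05). In its RefSeq promoter window the RBPJ core did not match, and CACGCG matched 11 and 34 bases after the start. NUMBL, related to the Notch inhibitor NUMB, stood in the same list of 16 endocytosis and turnover genes (2 called higher, median 0.29). It measured 671, 487 and 625 against 1088, 929 and 895, a log2 fold change of 0.72 ± 0.14 (adjusted p = 0.012), and without nPD-L1 replicate 1 its adjusted p was 0.089. ITCH, a ubiquitin ligase and the gene of that list with the highest level per length, had a log2 fold change of 0.40 (adjusted p = 0.14).

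Of 11 receptor maturation and cleavage genes 1 was called higher (median 0.01). FURIN, whose product cuts the receptor precursor and which earlier results of these data had already shown to be higher, measured 1273, 1457 and 1286 against 5301, 5295 and 4864. That is 3.85-fold, a log2 fold change of 1.95 ± 0.10 (adjusted p = 1.2e-06). APH1A, a gamma-secretase subunit and the gene of the list with the highest level per length, had a log2 fold change of -0.12 (adjusted p = 0.65).

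In the nuclear complex 1 of 9 genes was called higher (median 0.24). RBPJ measured 876, 771 and 862 against 1113, 1169 and 1242, with no overlap and a log2 fold change of 0.49 ± 0.10 (adjusted p = 0.019). Its call was lost when any library labelled nPD-L1 or vector replicate 1 was left out (adjusted p 0.057, 0.094, 0.12 and 0.066). SNW1, the transcriptional coregulator SKIP and the gene with the highest level per length there, had a log2 fold change of -0.08 (adjusted p = 0.76).

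Among 14 corepressors 2 were called higher (median 0.14). SPEN, which binds RBPJ in the absence of Notch, measured 1136, 740 and 1435 against 2128, 2005 and 2123, a log2 fold change of 0.97 ± 0.20 (adjusted p = 0.015). The adjusted p of SPEN was 0.098 without nPD-L1 replicate 1, 0.091 without nPD-L1 replicate 3 and 0.056 without vector replicate 1. TLE1, a Groucho corepressor with the highest level per length of the list, had a log2 fold change of -0.19 (adjusted p = 0.39).

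None of the 5 tested other receptor and ligand genes (median -0.16) and none of the 6 tested other HES and HEY genes (median 0.13) was called, and at an unadjusted p under 0.05 the counts were 0 and 1. DLL4, a Delta ligand of endothelium, had the largest difference of the former at 0.78 ± 0.50 (adjusted p = 0.56), on values of 5.20 to 13.6 across the vector libraries and 10.6 to 27.3 in the others. HES2 had the largest of the latter at 1.09 ± 0.44 (adjusted p = 0.27), on values of 8.07 to 14.7 and 14.2 to 33.8. The highest levels per length were those of EGFL7, a secreted Notch modulator (log2 fold change -0.18, adjusted p = 0.62), and HES4 (0.15, adjusted p = 0.72).

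**Figure D4:**
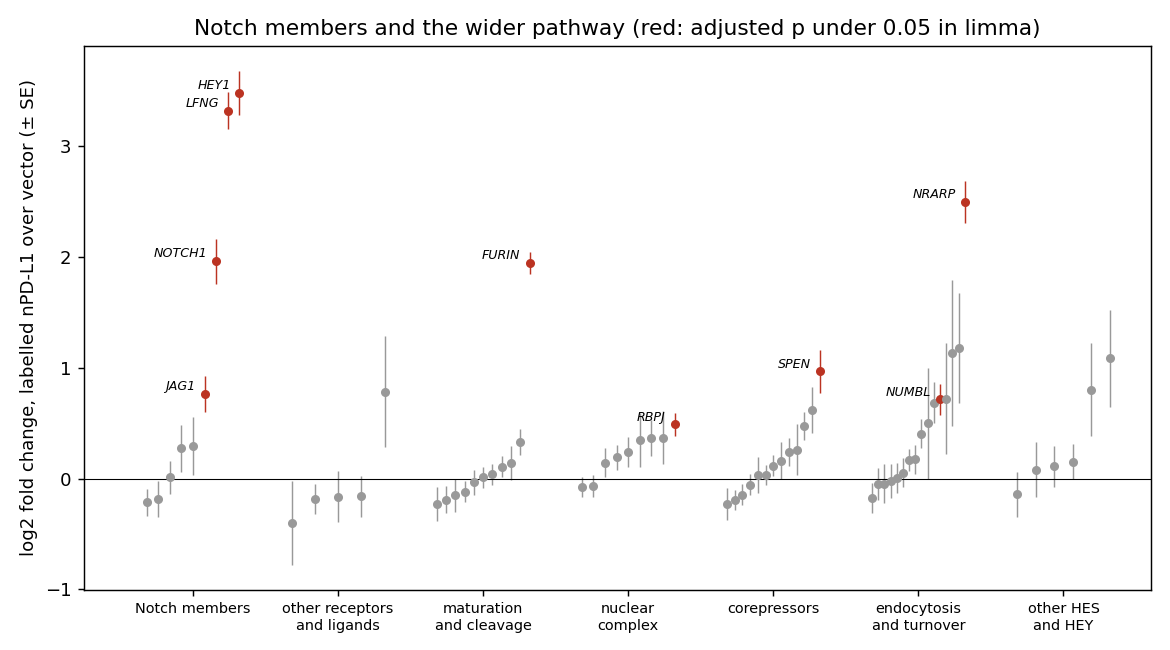
Log2 fold change (labelled nPD-L1 over vector, bars are SE) of the 9 tested Notch genes and of other tested pathway genes by list; red points are past an adjusted p of 0.05 in limma. The 4 red Notch genes lie between 0.77 and 3.48, and the red pathway genes between 0.49 and 2.50.

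Genes beside the Notch genes were examined to see whether the differences extended along the chromosome. Of 21 tested genes that overlap one of the 10 or are the nearest tested gene on either side, 0 were called by limma, edgeR's quasi-likelihood test and DESeq2 each called 1, and 2 had an unadjusted p under 0.05. Of all genes tested, limma called 4.96%, edgeR 5.03% and DESeq2 6.37%, and 14.2% had an unadjusted p under 0.05. Their median log2 fold change was -0.01. Beside LFNG, CHST12, 64046 bases away, was at 0.11 (adjusted p = 0.80) and BRAT1, 8700 bases away, at -0.01 (adjusted p = 0.98). HEY1 had no tested gene close by. IL7, 958487 bases away, was at 0.39 (adjusted p = 0.72) and MRPS28, 150854 bases away, at -0.25 (adjusted p = 0.53). Beside JAG1, SLX4IP, which ends 855 bases away, was at -0.18 (adjusted p = 0.65). On its other side BTBD3, 1216724 bases from JAG1, was at 0.04 (adjusted p = 0.88).

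Beside NOTCH3, ILVBL, 33253 bases away, was at -0.25 (adjusted p = 0.39). NALT1, an antisense transcript that starts 426 bases from NOTCH1, was at 0.32 (adjusted p = 0.82), and the antisense gene AL592301.1 inside NOTCH1 and MIR4648 inside LFNG were too low to be tested. On the sides of HES1, OPA1, 438322 bases away, was at 0.01 (adjusted p = 0.98). LRRC15 was at 2.0 ± 0.51 (adjusted p = 0.053), on means of 3.59 and 16.6 scaled reads. LRRC15, 216515 bases from HES1, is the gene that edgeR (adjusted p = 0.036) and DESeq2 (adjusted p = 0.036) called, and over the 17 alternatives that held it its adjusted p ran from 0.022 to 0.21. The other gene with an unadjusted p under 0.05 was CARD10 beside MFNG, at 0.42 (adjusted p = 0.15), named after its value was seen.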

How the data were processed

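Total RNA was prepared with a TRIzol Plus kit and libraries with the NEBNext Ultra RNA kit, and sequencing and analysis were done by a company. The submitters' processing notes list hg38, CASAVA and HISAT2 2.0.5, and the program that counted reads is not given in the sources used here. The authors' deposited values are a signal, the reads on each gene divided by a factor for each library. In all 6 libraries 100% of the values were whole multiples of the smallest value within 0.001 reads. The same table holds the authors' group means, fold change and p-values (raw and adjusted), which were not used. Gene coordinates of the table matched GENCODE v29, and gene lengths are the union of exons.

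Libraries were grouped by their titles (3 vector, 3 nPD-L1). Genes at 10 or above in 3 or more libraries (15076 genes) were tested by limma 3.58.1 (R 4.3.3) on log2(value + 1), with trend and robust moderation and Benjamini-Hochberg adjustment over all of them, and called at an adjusted p under 0.05. Fold changes are on that scale and understate changes of low genes. edgeR 4.0.16 and DESeq2 1.42.0 were run on the reads recovered by undoing the factors. The study names no test for single genes. The scripts were tested on simulated data. The Notch genes and all gene lists were chosen with earlier results of these data known. Genes named were the 10, every called gene of a list, the gene with the highest mean level per length, the gene with the largest difference where a list had no call, genes overlapping one of the 10 or nearest to LFNG, HES1, HEY1, JAG1 and NOTCH3, CD274 and the markers AFP, ALB, KRT19 and KRT7; NALT1, CARD10, HNF4A, LUM and COL1A1 were named after their values were seen. Some genes that these rules cover are not reported here. Alternatives changed the filter, scaling, pseudocount, moderation, test, block, threshold and libraries.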

Additional observations from a re-analysis of the deposited data

How the results depend on the processing

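The calls of LFNG, HEY1 and NOTCH1 held in all 18 alternative fits and that of JAG1 in 15, and the log2 fold changes ranged over these from 3.15 to 3.50 for LFNG, 3.28 to 3.69 for HEY1, 1.68 to 2.12 for NOTCH1 and 0.58 to 0.93 for JAG1. NRARP and FURIN were called in all 18. Adjusted p ranged from 0.0019 to 0.12 for RBPJ, from 0.00013 to 0.098 for SPEN and from 0.00022 to 0.089 for NUMBL. With 1 library left out, 3 to 4 Notch genes, 3 to 9 other pathway genes and 0 to 1 adjacent genes were called higher, and over all genes 350 to 793 were called higher (356, 403 and 350 without nPD-L1 replicate 1, 2 and 3) and 77 to 244 lower (84, 86 and 77 without those, 78 without vector replicate 1 and 244 without vector replicate 2). The 3 other pathway genes were left without nPD-L1 replicate 1 and the 9 without vector replicate 3. The 1 adjacent gene was LRRC15 without vector replicate 2 and CARD10 without vector replicate 3. By their titles, same-numbered libraries shared only a number, and whether they were prepared together is not stated. The correlations of their deviations were -0.013, 0.23 and 0.13 for replicates 1, 2 and 3. Vector replicates 2 and 3 correlated best with their own number, and vector replicate 1 did not (0.074 with nPD-L1 replicate 3). With the replicate number as a block, 927 genes were called higher and 258 lower, 10 other pathway genes were higher, the additions being DTX4, ITCH, SIN3A and TLE3, and the 4 Notch genes stayed at 4. Requiring also a 2-fold change left 306 genes higher, 68 lower and 3 other pathway genes. An unadjusted p under 0.05 gave 1436 higher, 710 lower, 14 other pathway genes and 2 adjacent genes. LRRC15 was the 1 adjacent gene called with DESeq2, with edgeR, with no filter and with a pseudocount of 10. Scaling alternatives moved the median of all genes by less than 0.03. limma on the libraries used for recovered reads was the same fit as the reported one, because reads were recovered in all 6. A difference in MFNG was not detectable at 1 to 14 reads.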
